A study of Mus musculus with 8 samples.

Results

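Bone morphogenetic protein (BMP) signaling was examined in the fetal mouse lung through 10 genes chosen by symbol: the ligands Bmp2, Bmp4, Bmp5 and Bmp7, the type II receptor Bmpr2, the secreted antagonists Nog and Grem1, the inhibitory Smad gene Smad6, and the target genes Id1 and Id3. All 10 were found among the 55385 gene IDs of the count tables, and all 10 passed the filter of the main comparison, 5 reads or more in at least 3 of its 6 libraries, as did 21859 genes in all. The samples were whole lungs of C57BL/6 mouse fetuses collected at E18.5, 4 from control fetuses and 4 from fetuses with tracheal occlusion (TO), which blocks the outflow of the fluid that the fetal lung secretes. In TO fetuses the trachea was ligated through the uterine wall at E16.5 together with a carotid artery and a jugular vein, in anterior-facing fetuses, and the dam received progesterone, so the operation and the occlusion cannot be told apart. A sham ligation of the control fetuses is not described in the sources used here. Control was compared with TO lung, and each library is shown.

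BMP ligands are secreted dimers that bind a complex of type I and type II receptors on the cell surface. The receptors phosphorylate Smad1, Smad5 and Smad9, which enter the nucleus with Smad4 and switch on target genes such as Id1, Id2 and Id3, regulators that block the action of basic helix-loop-helix transcription factors. Noggin, the product of Nog, and gremlin 1, the product of Grem1, hold ligands away from the receptors, and Smad6 is itself a target that dampens the pathway. In the developing lung Bmp4 is known for its part in budding and in the patterning of the distal epithelium, and Bmpr2 for its part in the pulmonary vessels.

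Read pairs counted on genes numbered 22822261 to 35002061 in 7 libraries and 270078 in TO 1, where 3 reads correspond to 10.3 CPM, the read count scaled to a fixed library size. The main comparison used controls 1, 2 and 4 and TO 2, 3 and 4, the specimens shown in the heatmaps of the study, and control 3 and then TO 1 were added in further fits. Levels are CPM after TMM scaling, which corrects for differences in library composition. By their specimen codes the libraries fall into 3 sets, controls 1 and 4 with TO 1 and 4, control 2 with TO 2, and control 3 with TO 3. What the codes stand for is not given in the sources used here. The defining lung genes Nkx2-1, Sftpc and Ager were found in every library, and the lung epithelium list had no gene at 0. Some libraries stood apart. TO 1, TO 4 and control 1 held transcripts of stratified epithelium, and control 3 and TO 3 had the lowest summed level of the cell cycle list. Their values are given beside the genes they move with.

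None of the 10 BMP genes passed the test of TO against control lung at an adjusted p under 0.1. The quasi-likelihood test of edgeR, DESeq2 and limma-voom each called 0 of the 10, beside 0.0% of all genes tested with edgeR and 0.201% with DESeq2. At an unadjusted p under 0.05, edgeR found 2 of the 10 higher in TO lung, Bmp2 and Grem1, and 0 lower, where 3.07% of all genes tested were higher and 2.07% lower. With control 3 added, 1 of the 10 was higher at this threshold, Grem1, and 0 lower, where 451 of 22539 genes passed in either direction. The same held with all 8 libraries, where 530 of 22545 genes passed. In the main comparison the median log2 fold change of the 10 genes was -0.06 and that of all genes tested -0.0045. The groups of 3 did not overlap for 1 of the 10, Bmp2, which was higher in TO. Of all genes tested, 5.06% were higher without overlap and 5.82% lower. As this is bulk RNA, fewer cells of a type and less RNA per cell cannot be told apart in any of these values.

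**Figure D1:**
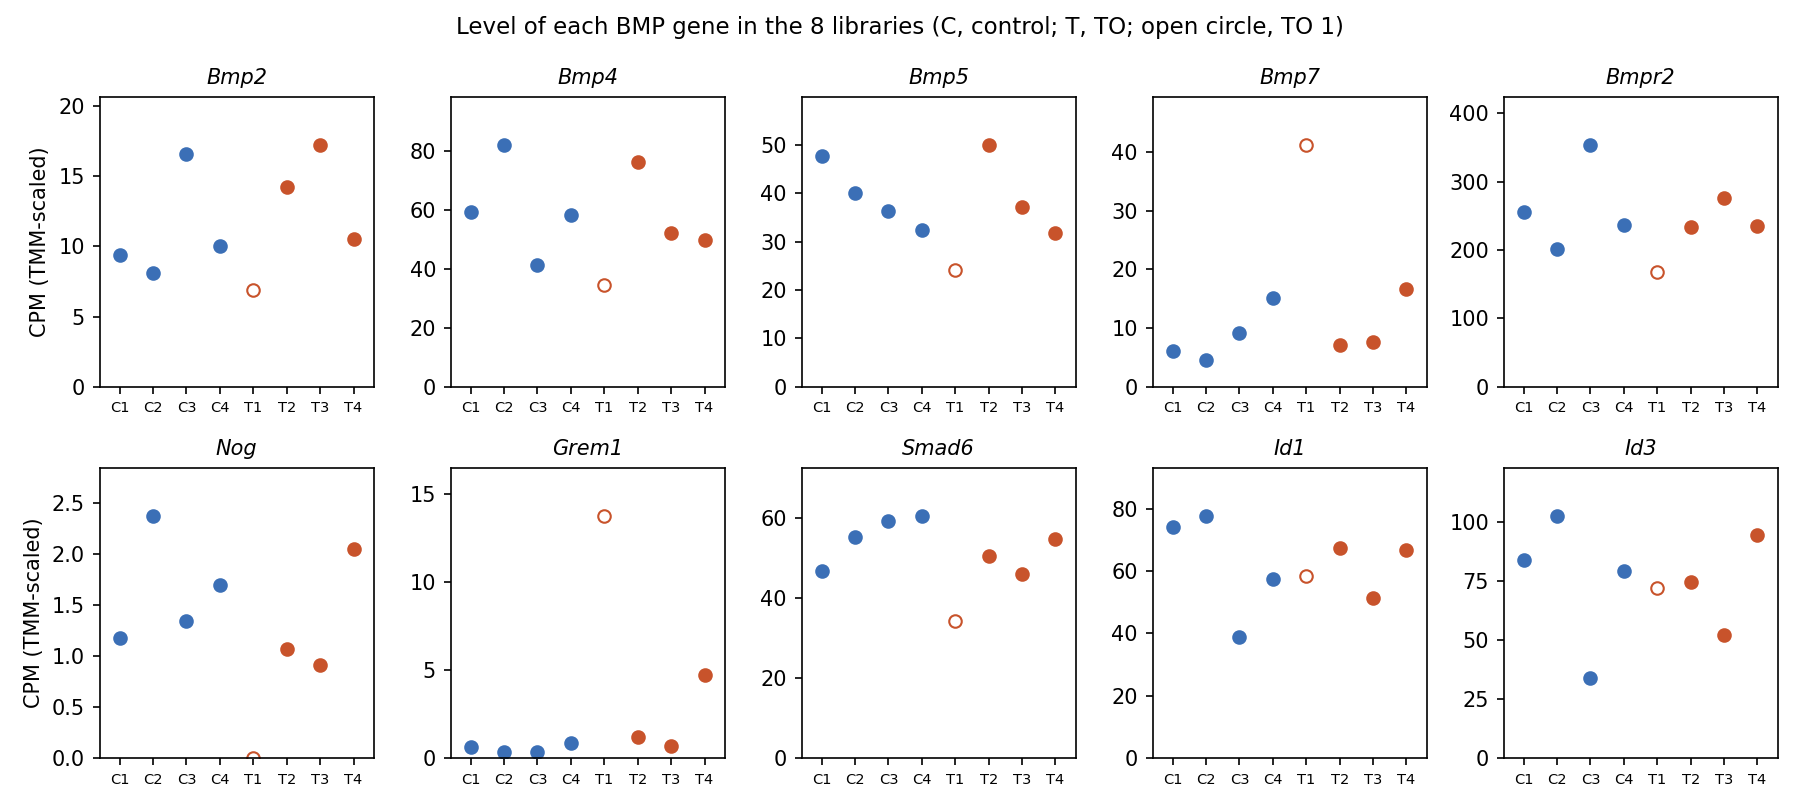
Level of each of the 10 BMP genes in CPM (y axis, from 0) in controls 1 to 4 (C1 to C4) and TO 1 to 4 (T1 to T4), 1 point per library, with the open circle for the shallow library TO 1. Grem1 is at 13.7 CPM in TO 1, on 4 reads, at 4.72 CPM in TO 4 and at 0.34 to 0.85 in the controls. With control 3 counted the groups overlap for all 10 genes.

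Compared per kilobase of exon, the target genes were on average the most abundant of the 10 and the antagonists the least. Over the 7 libraries other than TO 1, Id1 stood at 53.5 ± 11.8 CPM per kb (SD, n = 7) and Id3 at 41.6 ± 13.4, and Id1 exceeded Id3 in 7 of 7 libraries. Bmp4 was the leading ligand at 26.6 ± 6.48 CPM per kb, followed by Bmp5 at 9.77 ± 1.77, Bmp2 at 3.46 ± 1.03 and Bmp7 at 2.35 ± 1.15. Smad6, at 16.6 ± 1.79 CPM per kb, and Bmpr2, at 14.2 ± 2.72, lay between Bmp4 and Bmp5. Nog was at 0.90 ± 0.32 CPM per kb and Grem1 at 0.30 ± 0.38. The ranges of neighbours in this order overlapped at each step except that from Bmp5 to Bmp2. Bmp2 exceeded Bmp7 in 5 of 7 libraries and Smad6 exceeded Bmpr2 in 5 of 7. Bmp4 exceeded Smad6 in 6 of 7 and Bmp7 exceeded Nog in 6 of 7. These neighbours therefore did not keep 1 order in every lung. The place of Bmp5 depends on how reads shared with an overlapping gene are counted. The counts of the separate strands added up give every pair shared between opposite strands to Bmp5, including any from the overlapping gene. By this upper limit Bmp5 stood at 20.2 ± 4.36 CPM per kb (SD, n = 7), above Smad6 and Bmpr2 on average, with overlapping ranges. Its range then also overlapped that of Bmp4.

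**Figure D2:**
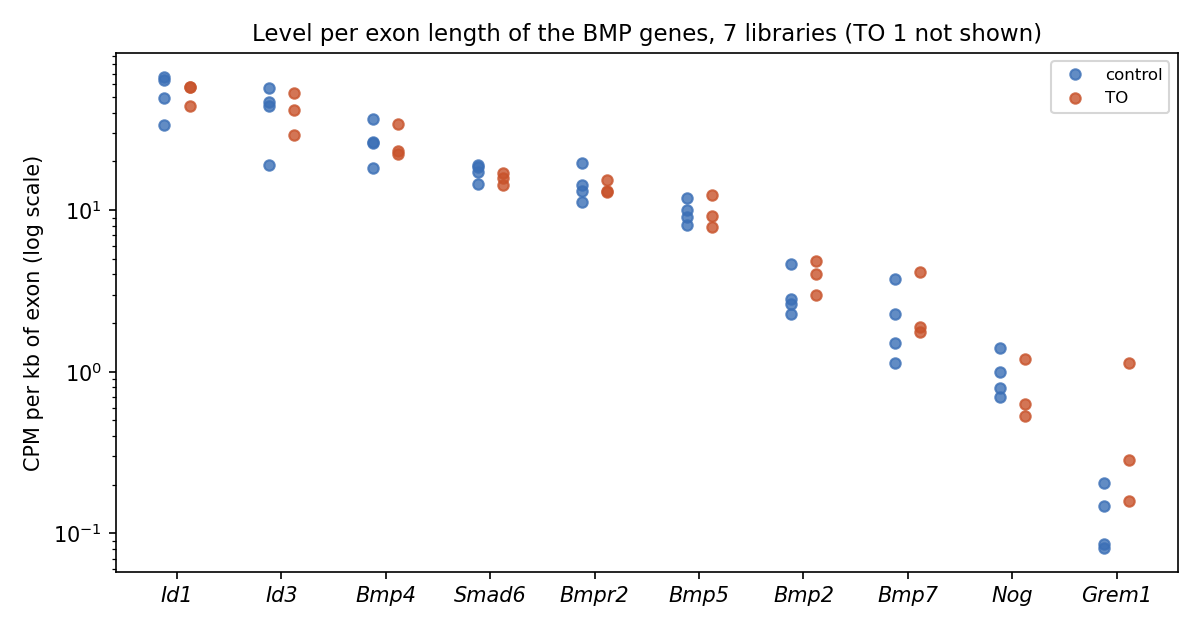
CPM per kilobase of exon (y axis, log scale) of the 10 BMP genes, ordered by their mean over 7 libraries, with 1 point for each control (blue) or TO (orange) library. The targets Id1 and Id3 lead at means of 53.5 and 41.6, and Nog and Grem1 close the order at 0.90 and 0.30.

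Among the 4 ligands of the 10 genes, Bmp2 was the one with separate groups in the main comparison. Bmp2 (ENSMUSG00000027358.6, chromosome 2, 133552159 to 133562885 on GRCm38) was at 9.37, 8.10 and 10.03 CPM in controls 1, 2 and 4 and at 14.3, 17.2 and 10.5 CPM in TO 2, 3 and 4. Every TO lung of this comparison lay above every control, TO 4 by the least. The log2 fold change was 0.61 ± 0.22 (SE), a 1.52-fold higher level, with an edgeR p of 0.023 and an adjusted p of 0.907. Control 3, however, had 16.5 CPM, more than TO 2 and TO 4. With control 3 added the log2 fold change was 0.35 ± 0.28 (adjusted p = 0.9998, edgeR), and with all 8 libraries, where TO 1 counted 2 reads, it was 0.28 ± 0.29. Within the sets of specimen codes, with TO 1 left out, TO exceeded control on the log2 scale by 0.81 for TO 2, by 0.06 for TO 3 and by 0.12 for TO 4.

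Bmp4, the most abundant ligand of the 4, overlapped between groups. Bmp4 (ENSMUSG00000021835.15, chromosome 14, 46383520 to 46390669) was at 59.1, 81.9, 41.2 and 58.2 CPM in controls 1 to 4 and at 76.3, 51.9 and 49.8 CPM in TO 2, 3 and 4. The highest level was that of control 2 and the next that of TO 2, so the lungs of 1 specimen code were the highest of both groups. Its log2 fold change was -0.16 ± 0.20 (SE, adjusted p = 0.952, edgeR). TO 1 had 10 reads of Bmp4, or 34.3 CPM.

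Bmp5 (ENSMUSG00000032179.7, chromosome 9, 75775364 to 75900310) had nearly equal group means, 40.01 ± 7.64 CPM in controls 1, 2 and 4 and 39.6 ± 9.37 in TO 2, 3 and 4 (SD, n = 3). Its levels were 47.6, 40.1, 36.3 and 32.3 CPM in controls 1 to 4 and 50.0, 37.2 and 31.7 CPM in TO 2, 3 and 4, with a log2 fold change of -0.01 ± 0.20 (SE, adjusted p = 0.996, edgeR). Of the exon length of Bmp5, 46.7% is shared with Gm26903 on the opposite strand, and read pairs that fall on both genes are left out of a count that ignores strand. The counts of the separate strands added up to 186% to 234% of that count for Bmp5 in the 7 deep libraries, to 101% to 103% for Bmp4 and to 100% for the other 8 genes. The level of Bmp5 given here leaves out the shared pairs, and the added counts include any of them that come from Gm26903.

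Bmp7 varied within groups more than between them. Bmp7 (ENSMUSG00000008999.7, chromosome 2, 172868012 to 172940321) was at 6.08, 4.59, 9.10 and 15.1 CPM in controls 1 to 4 and at 7.08, 7.64 and 16.6 CPM in TO 2, 3 and 4. Control 4 was the highest control and TO 4 the highest of TO 2 to 4, and TO 1 stood at 41.2 CPM on 12 reads. The log2 fold change was 0.29 ± 0.49 (SE, adjusted p = 0.968, edgeR), and it was -0.22 without TO 4 and 0.97 without control 4, so single lungs set its sign and size. The balance of the ligands shifted between libraries as well. Per kilobase, Bmp4 exceeded Bmp2 by 9.97, 16.0, 3.94 and 9.18 times in controls 1 to 4 and by 8.46, 4.76 and 7.46 times in TO 2, 3 and 4. The lowest ratio in each group was that of the library numbered 3.

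The receptor gene Bmpr2 (ENSMUSG00000067336.6, chromosome 1, 59763400 to 59879014) was at 256, 201, 354 and 236 CPM in controls 1 to 4 and at 233, 276 and 235 CPM in TO 2, 3 and 4. Control 3 was the highest control and TO 3 the highest TO lung. In the 6 libraries the log2 fold change was 0.10 ± 0.12 (SE, adjusted p = 0.955, edgeR), and with control 3 added it changed sign, to -0.08 ± 0.19. Per kilobase, Bmpr2 stood at 0.64, 0.62, 0.78 and 0.59 times the level of the type I receptor gene Bmpr1a in controls 1 to 4 and at 0.61, 0.66 and 0.59 times in TO 2, 3 and 4, a ratio that was again highest in the libraries numbered 3.

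Of the antagonists, Grem1 had the largest fold change of the 10 genes. Grem1 (ENSMUSG00000074934.3, chromosome 2, 113746164 to 113758646) was at 0.61, 0.36, 0.34 and 0.85 CPM in controls 1 to 4, on 14, 11, 10 and 21 reads. In TO 2, 3 and 4 it was at 1.19, 0.66 and 4.72 CPM, on 41, 16 and 166 reads. TO 2 and TO 4 exceeded every control, while TO 3 lay below control 4. The log2 fold change was 1.87 ± 0.77 (SE), a 3.64-fold higher level, with an edgeR p of 0.038 and an adjusted p of 0.907. Without TO 4 it was 0.62 ± 0.76 (adjusted p = 0.851, edgeR), so TO 4 carried most of it. TO 1 had 4 reads of Grem1, or 13.7 CPM, the highest level of all, and with all 8 libraries the log2 fold change was 2.51 ± 0.83 (adjusted p = 0.99999, edgeR). TO exceeded control within all 3 sets of specimen codes, by 1.53 for TO 2, 0.84 for TO 3 and 2.58 for TO 4 on the log2 scale. Bmp2 and Grem1 were the 2 of the 10 genes with 1 direction in all 3 sets. Of the 53 tested genes of the wider BMP pathway, 12 were higher and 6 lower in TO in all 3. The share of all genes with 1 direction was not computed, so these counts stand without a background.

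TO 1 and TO 4, the 2 libraries with the most Grem1 and Bmp7, were also high for some marker lists of tissues next to the lung. The 8 genes of the esophagus list, among them the stratified keratins Krt13 and Krt4, summed to 333 CPM in TO 1, 292 in TO 4 and 298 in control 1, and to 6.71 to 11.4 CPM in the other 5 libraries, where Krt6a, Sprr3 and Dsg3 were at or near 0. The esophagus list also includes Krt5, Krt14 and Trp63, which the study treats as basal cell markers, so a high sum does not name the tissue. In control 1, where the esophagus list was as high as in TO 4, Grem1 was at 0.61 CPM and Bmp7 at 6.08 CPM. Control 4 had Bmp7 at 15.1 CPM with an esophagus sum of 11.4 CPM. The 10 genes of the cardiomyocyte list summed to 483 to 5028 CPM in the controls, lowest in controls 1 and 2, to 2485, 3758 and 5295 CPM in TO 2, 3 and 4, and to 6668 CPM in TO 1. The ventricular light chain gene Myl2 was at 502 CPM in TO 4 and 779 in TO 1, at 1.73 and 1.78 CPM in TO 2 and TO 3, and at 1.53, 5.24, 181 and 153 CPM in controls 1 to 4. Controls 3 and 4, the controls with the most Myl2, had Grem1 at 0.34 and 0.85 CPM. Thymocyte genes summed to 402 CPM in TO 1 and to 1.98 to 21.0 CPM elsewhere. The smooth muscle list was highest in TO 4, at 1109.8 CPM, and in control 3, at 1026 CPM, and lowest in TO 3, at 549. The origin of these transcripts, and the part of such tissues in the levels of Grem1 and Bmp7, were not tested.

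**Figure D3:**
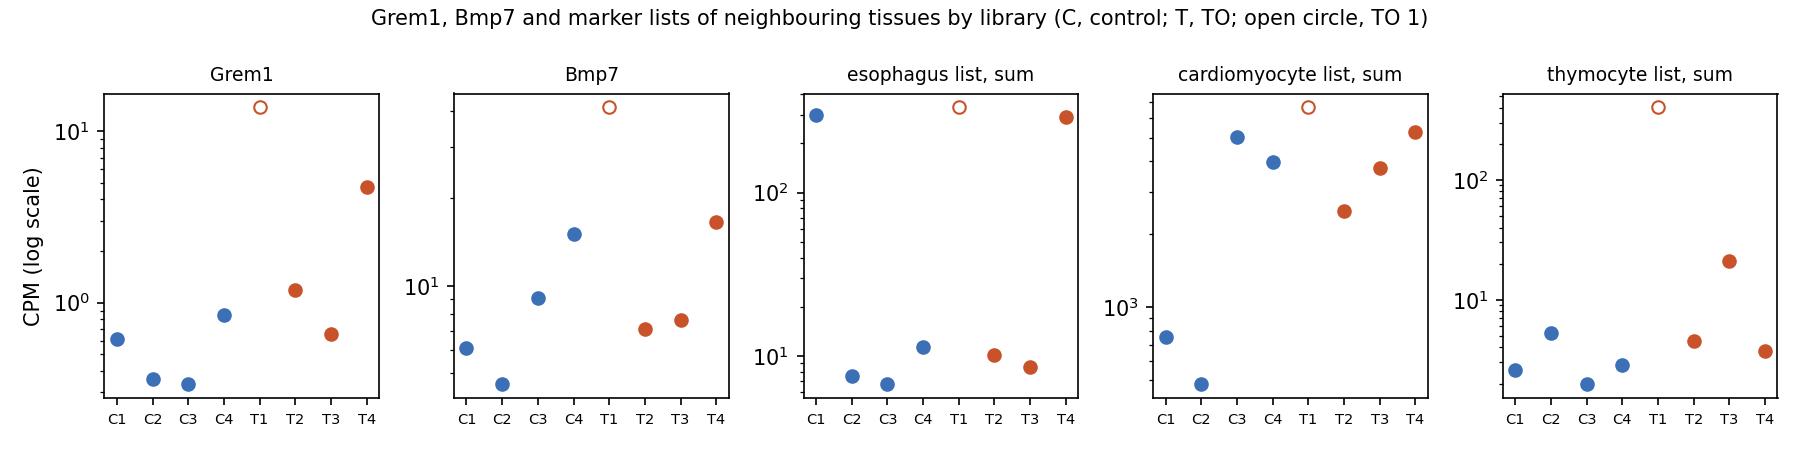
CPM on log scales (y axes) of Grem1, of Bmp7 and of the summed esophagus, cardiomyocyte and thymocyte marker lists in controls 1 to 4 (C1 to C4) and TO 1 to 4 (T1 to T4), with the open circle for TO 1. TO 1 and TO 4 are highest for Grem1 and Bmp7, and the esophagus list is high in these 2 and, at 298 CPM, in control 1.

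Nog (ENSMUSG00000048616.4, chromosome 11, 89300638 to 89302332) was low throughout, at 1.18, 2.37, 1.34 and 1.70 CPM in controls 1 to 4 and at 1.07, 0.91 and 2.05 CPM in TO 2, 3 and 4, on 22 to 73 reads. TO 2 and TO 3 lay below every control and TO 4 above 3 of the 4. For Nog the log2 fold change was -0.38 ± 0.50 (SE, adjusted p = 0.957, edgeR). TO 1 had 0 reads of Nog, which allows up to 10.3 CPM by a limit of 3 reads that covers counting error only. Per kilobase, Bmp4 exceeded Nog 18.3- to 53.8-fold over the 7 libraries, with both ends of this range in the TO group, at TO 4 and TO 2.

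Smad6 was the steadiest of the 10 genes. Smad6 (ENSMUSG00000036867.7, chromosome 9, 63953076 to 64022059) was at 46.7, 55.3, 59.3 and 60.6 CPM in controls 1 to 4 and at 50.5, 46.1 and 54.7 CPM in TO 2, 3 and 4. Over the 7 libraries other than TO 1, its highest was 1.31 times its lowest, against 1.58 times for Bmp5, the next, and 14.1 times for Grem1. Between groups the log2 fold change was -0.10 ± 0.14 (SE, adjusted p = 0.957, edgeR).

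The target genes Id1 and Id3 overlapped between groups and were lowest in the same libraries. Id1 (ENSMUSG00000042745.9, chromosome 2, 152736251 to 152737410) was at 74.3, 77.7, 39.0 and 57.4 CPM in controls 1 to 4 and at 67.4, 51.3 and 66.9 CPM in TO 2, 3 and 4. Id3 (ENSMUSG00000007872.3, chromosome 4, 136143497 to 136145755) was at 84.1, 103, 33.9 and 79.5 CPM in controls 1 to 4 and at 74.8, 52.0 and 94.8 CPM in TO 2, 3 and 4. For both genes control 3 was the lowest control and TO 3 the lowest TO lung. The log2 fold change was -0.17 ± 0.16 (SE, adjusted p = 0.931, edgeR) for Id1 and -0.26 ± 0.21 (SE, adjusted p = 0.914, edgeR) for Id3. With control 3 added both moved to near 0, -0.01 ± 0.23 for Id1 and -0.02 ± 0.33 for Id3. Within the sets of specimen codes the differences of Id3 had no single sign, at -0.46 for TO 2, 0.61 for TO 3 and 0.21 for TO 4, and those of Id1 were -0.21, 0.39 and 0.04.

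**Figure D4:**
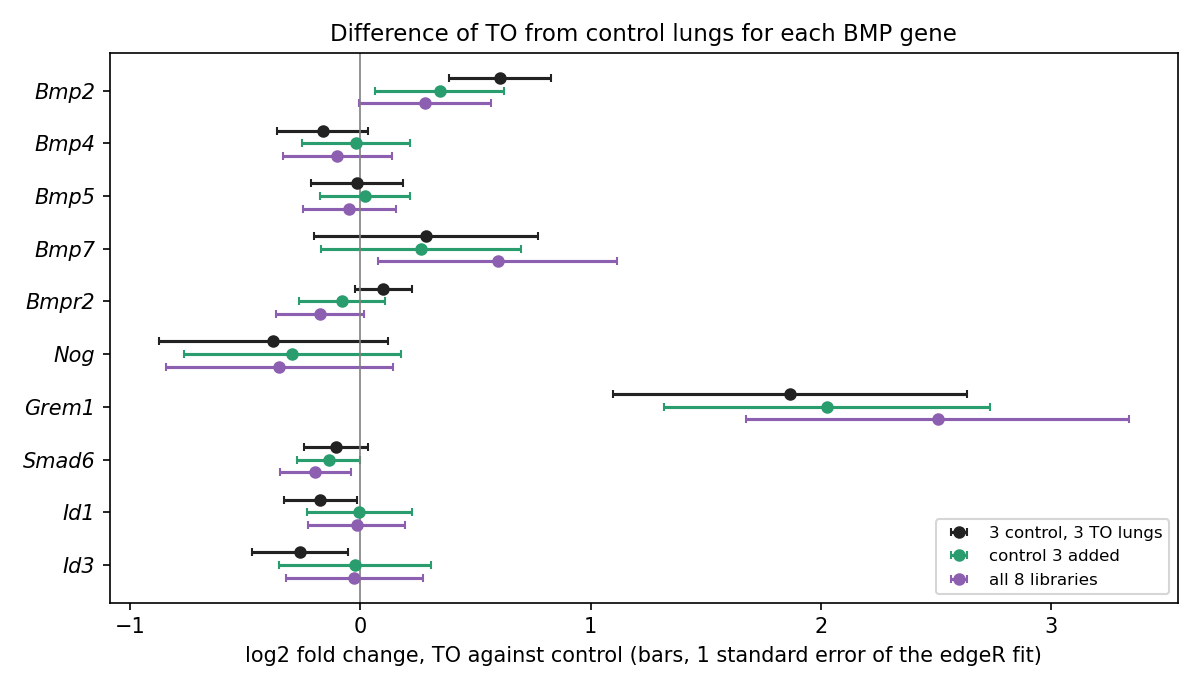
Log2 fold change of TO against control lung (x axis) for each of the 10 BMP genes in edgeR fits of 6 libraries (black), with control 3 added (green) and of all 8 libraries (purple), with bars of 1 standard error. Grem1 lies at 1.87, 2.03 and 2.51, Bmp2 falls from 0.61 to 0.35 and 0.28, and the bars of Id1 and Id3 span 0 once control 3 is added.

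The libraries numbered 3 were at an end of their group for 5 of the 10 genes. In control 3 among the controls and TO 3 among TO 2 to 4, Id1, Id3 and Grem1 were lowest and Bmp2 and Bmpr2 highest. For Grem1 this is near a tie, with 10 reads in control 3 and 11 in control 2. Of all genes tested, 18.0% were lowest and 15.7% highest in both libraries. Of the 53 BMP pathway genes tested, 12 were lowest and 13 highest in both. Id2, a target gene related to Id1 and Id3, was at 164, 175, 60.4 and 130.0 CPM in controls 1 to 4 and at 152, 101 and 144 CPM in TO 2, 3 and 4. Smad9, which encodes a receptor-activated Smad and was singled out after its values were seen, was at 29.5, 31.0, 10.4 and 27.9 CPM in the controls and at 29.9, 14.4 and 29.4 CPM in TO 2, 3 and 4. For both genes the libraries numbered 3 lay below all others of the 7. The cell cycle list summed to 469 CPM in control 3 and 446 in TO 3, to 922 in TO 2 and to 1398 to 1776 in the other 5 libraries, and the interferon list to 287 CPM in control 3, 514 in TO 3 and 92.2 to 172 elsewhere. The part of either in the levels of the BMP genes was not tested.

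Promoter sequences are shown for 3 targets of the pathway, chosen by their levels. Id2 and Id3 were, among the 7 deep libraries, lowest in those numbered 3, and Smad6 was the steadiest of the 10 genes. In the wider list some genes were steadier, such as Smad1, whose highest level was 1.16 times its lowest. Each runs 5′ to 3′ over 260 bases, from 250 before the RefSeq start site (GRCm38.p6). Capitals mark the palindrome GTCTAGAC, the GTCT and AGAC it is made of, which are the short Smad box read on either strand, and GGCGCC, a GC-rich element known to bind Smad1 and Smad5.
Smad6, chr9:64022050-64022309, minus strand: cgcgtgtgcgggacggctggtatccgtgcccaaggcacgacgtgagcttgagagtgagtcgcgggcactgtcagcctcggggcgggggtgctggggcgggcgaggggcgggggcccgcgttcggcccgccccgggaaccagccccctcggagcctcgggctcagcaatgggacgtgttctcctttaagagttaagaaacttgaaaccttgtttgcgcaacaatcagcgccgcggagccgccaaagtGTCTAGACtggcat
Id3, chr4:136143572-136143831, plus strand: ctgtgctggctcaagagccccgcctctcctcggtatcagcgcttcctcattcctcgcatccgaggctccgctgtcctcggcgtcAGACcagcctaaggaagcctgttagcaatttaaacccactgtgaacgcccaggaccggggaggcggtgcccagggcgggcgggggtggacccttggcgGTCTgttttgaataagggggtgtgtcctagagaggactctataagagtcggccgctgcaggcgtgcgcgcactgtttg
Id2, chr12:25096083-25096342, minus strand: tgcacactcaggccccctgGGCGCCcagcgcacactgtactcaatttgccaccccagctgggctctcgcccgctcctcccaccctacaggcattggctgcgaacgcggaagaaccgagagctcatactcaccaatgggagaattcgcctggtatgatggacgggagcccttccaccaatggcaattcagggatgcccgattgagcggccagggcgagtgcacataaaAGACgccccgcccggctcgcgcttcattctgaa

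The Smad6 window held GTCTAGAC at position -4, so the palindrome spans the start site. Of 32851 RefSeq windows of this length, 58 (0.177%) held it, and Smad6 was the 1 gene with it among the 36 of 55 pathway genes that have a window. Id2 held GGCGCC at position -231, and 9.96% of all windows held this element. Id3 held neither of the longer motifs and 2 short boxes, and 84.0% of all windows held at least 1 short box, including those inside the palindrome. Of the 10 genes, 6 have a window. Bmpr2 held GGCGCC at -105 and Grem1 at -78, while Bmp4 and Bmp5 held neither of the longer motifs. These matches describe letters in the windows only.

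The wider pathway was taken from a list of 55 genes in 5 classes, of which 53 were tested. The quasi-likelihood test of edgeR called 0 of the 53, and so did DESeq2 and limma-voom. DESeq2 gave Bmp10 no p and Gdf2, Gdf7 and Chrdl2 no adjusted p, so it could not call these genes. At an unadjusted p under 0.05, 6 of the 53 were higher in TO lung by edgeR, namely Bmp2, Grem1, Bmper, Gdf7, Fst and Rgma, and 0 were lower, beside 3.07% and 2.07% of all genes tested. With control 3 added, 2 of 54 were higher and 0 lower at this threshold, where 451 of all 22539 genes tested passed in either direction. With all 8 libraries these counts were again 2 and 0 of 54, where 530 of 22545 genes passed. In the main comparison, 32 of the 53 had a log2 fold change above 0 and 21 below, with a median of 0.10. With all 8 libraries 24 were above and 30 below, with a median of -0.02. The groups of 3 did not overlap for 6 of the 53 pathway genes that were higher in TO, beside 5.06% of all genes tested, and for 1 that was lower, beside 5.82%.

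Among the other ligands, Bmp10, a ligand made by the atrial heart muscle, was at 0.26, 0.07, 152 and 83.1 CPM in controls 1 to 4 and at 49.9, 120.1 and 58.1 CPM in TO 2, 3 and 4. Controls 1 and 2, with 6 and 2 reads, were also the 2 libraries with the lowest cardiomyocyte sums, 756 and 483 CPM. Its log2 fold change was 1.44 ± 1.49 (SE, adjusted p = 0.938, edgeR). Without control 4, the comparison rested on the 2 controls with almost no Bmp10, and the value was 8.93 (adjusted p = 0.0084, edgeR). Gdf7 had 0, 0, 6 and 1 reads in controls 1 to 4 and 6, 9 and 13 in TO 2, 3 and 4, too few for a fold change. Of the 12 ligands tested, 8 had a log2 fold change above 0 and 4 below, and with all 8 libraries 7 of 13 were above and 6 below.

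No receptor gene passed the test. Of 11, 9 had a log2 fold change above 0 and 2 below, with a median of 0.14, and with all 8 libraries 5 were above and 6 below, with a median of -0.01. Acvrl1 and Eng, receptor and co-receptor of the endothelium, were at 205 to 292 and 172 to 192 CPM in the controls and at 180 to 286 and 189 to 215 CPM in TO 2 to 4. Their log2 fold changes were -0.13 ± 0.20 and 0.14 ± 0.10 (SE). The type I receptor gene Bmpr1a was at 114 to 160 CPM in the controls and 134 to 148 CPM in TO 2 to 4. Rgma, which encodes a co-receptor of BMP ligands, was at 29.8, 35.6, 43.0 and 31.3 CPM in controls 1 to 4 and at 43.5, 39.2 and 37.8 CPM in TO 2, 3 and 4, with a log2 fold change of 0.32 ± 0.13 (SE, adjusted p = 0.907, edgeR). As with Bmp2, control 3 lay among the TO lungs.

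Of 14 antagonist genes tested, 10 had a log2 fold change above 0 and 4 below, and with all 8 libraries 9 were above and 5 below. Bmper, which encodes a secreted regulator of BMP ligands in vessels, was at 38.6, 42.0, 75.7 and 44.2 CPM in controls 1 to 4 and at 62.7, 61.7 and 45.0 CPM in TO 2, 3 and 4. Its log2 fold change was 0.44 ± 0.15 (SE, adjusted p = 0.907, edgeR), and with all 8 libraries it was 0.12. Fst, which encodes follistatin, a binder of activins and some BMP ligands, was at 2.45, 0.91, 2.75 and 1.33 CPM in the controls and at 1.79, 5.33 and 4.49 CPM in TO 2, 3 and 4, with a log2 fold change of 1.31 ± 0.52 (SE, adjusted p = 0.907, edgeR). TO 2 lay below controls 1 and 3. Chrdl1, which encodes a chordin-like antagonist and was singled out after its values were seen, was at 2.23, 0.13, 1.51 and 1.98 CPM in controls 1 to 4 and at 3.06, 2.98 and 7.02 CPM in TO 2, 3 and 4, and TO 1 had 1 read. Every TO lung lay above every control, and TO exceeded control within all 3 sets of specimen codes. The log2 fold change was 1.60 ± 0.79 (SE, adjusted p = 0.907, edgeR), and with all 8 libraries it was 1.56 ± 0.66. Other pathway genes, also singled out after their values were seen, had separate groups over all 8 libraries. The target Id4 was at 12.1 to 14.8 CPM in TO 2 to 4, against 9.66 to 11.2 in the controls. Smad1 was lower, at 53.6 to 59.6 CPM in TO 2 to 4 against 59.8 to 62.2. In TO 1 Id4 was at 20.6 CPM on 6 reads and Smad1 at 51.5 CPM on 15 reads. With so few reads, and 1 for Chrdl1, TO 1 adds little to the separation. The share of all genes with separate groups in 8 libraries was not computed. In the 6 libraries of the main comparison it was 5.06% higher and 5.82% lower. Twsg1 and Nbl1, the most abundant of the class per kilobase beside Bmper, had log2 fold changes of 0.07 ± 0.11 and -0.24 ± 0.17 (SE).

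Smads and targets had more log2 fold changes below 0 than above in the main comparison, and none passed the test. The median of all genes tested was -0.0045, and the share of all genes below 0 was not computed. Of the 8 genes of Smads and their ubiquitin ligases, 5 had a log2 fold change below 0 and 3 above, with a median of -0.06, and of the 10 targets 8 were below and 2 above, with a median of -0.14. With all 8 libraries 7 of the 8 and 8 of the 10 were below 0. The direction of the targets depended on the fit. With the specimen codes as blocks in 7 libraries, Id1, Id2, Id3, Id4 and Atoh8 were above 0, at 0.06, 0.14, 0.13, 0.33 and 0.24. Smad6, Smad7, Msx1, Msx2 and Hey1 were below 0 in that fit. Smad6 and Smad7 stand in both classes. Smad4, the shared partner of the receptor-activated Smads, was at 114, 103, 168 and 122 CPM in controls 1 to 4 and at 115, 123 and 114 CPM in TO 2, 3 and 4. Smad5 was at 184 to 216 CPM in the controls and 178 to 201 CPM in TO 2 to 4, and Smurf2, a ubiquitin ligase that acts on Smads and receptors, at 162 to 227 and 159 to 211 CPM. Summed per kilobase, the target class stood at 234, 266, 144 and 209 CPM per kb in controls 1 to 4 and at 228, 170 and 230 CPM per kb in TO 2, 3 and 4, while the ligand class stood at 55.6, 62.3, 101 and 73.3 CPM per kb in the controls and at 80.9, 87.6 and 61.7 CPM per kb in TO 2, 3 and 4. Over these 7 libraries, control 3 and TO 3 had the lowest target sum of their groups, and TO 1 stood at 169 CPM per kb. They also had the highest ligand sums, but without Bmp10 the ligand sum was 66.8 CPM per kb in control 3, still the highest control, and 60.9 in TO 3, below the 69.8 of TO 2.

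**Figure D5:**
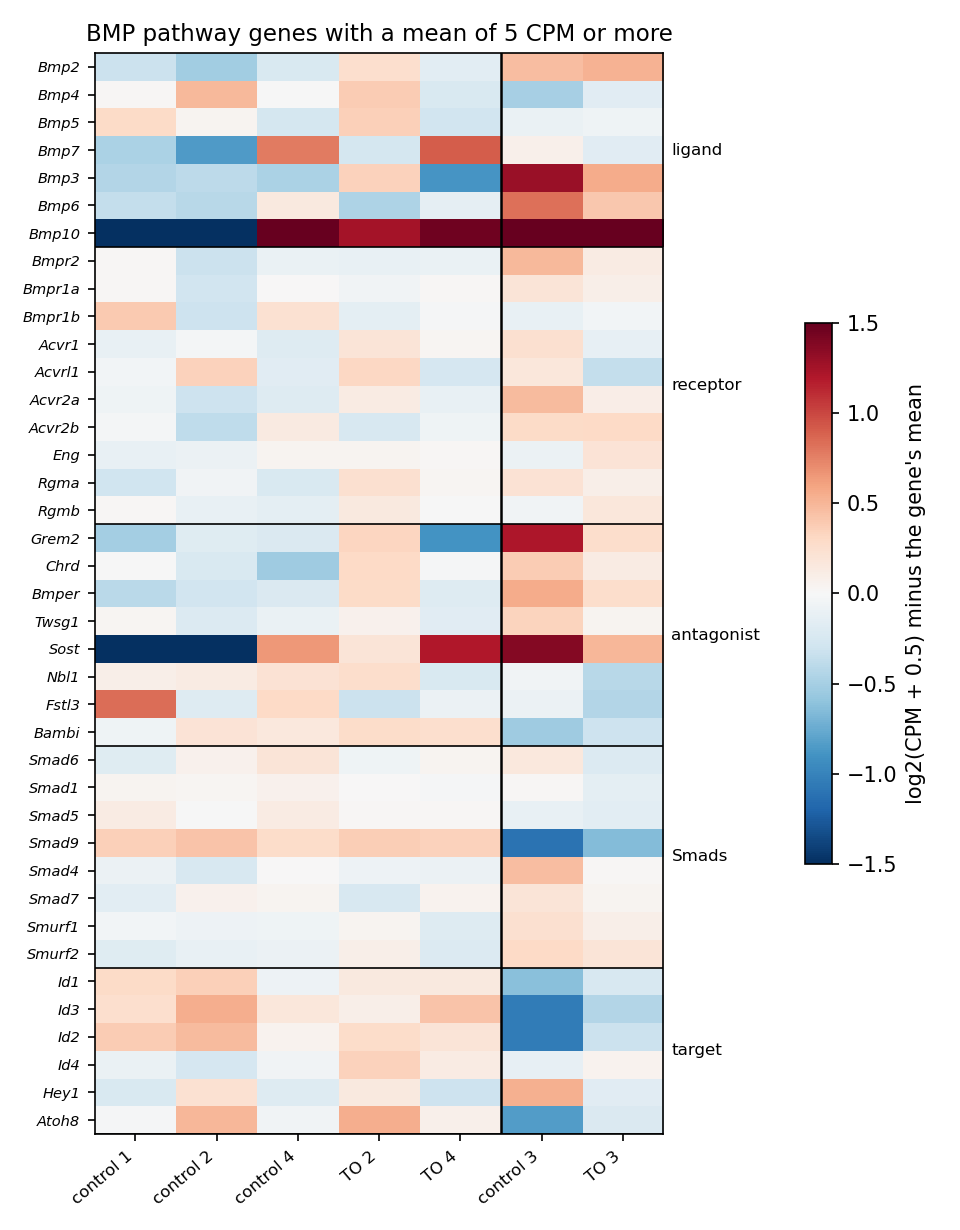
Log2(CPM + 0.5) of the BMP pathway genes with a mean of at least 5 CPM, each centered on its mean over 7 libraries (columns), with genes (rows) grouped as ligands, receptors, antagonists, Smads and targets. Colors end at 1.5 in either direction, and control 3 and TO 3, right of the line, are blue for Id1, Id2, Id3 and Smad9 and red for Bmp2 and Bmpr2.

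Of the 10 genes, 5 varied at least 2-fold over the 7 libraries, and for each the 2 most similar of 12369 other genes were sought, by the root mean square difference of centered log2 CPM. As the genes were chosen by likeness, high or low libraries that they share with a member are no separate observation. For Id3 these genes were Sbk1 (0.08) and Crip1 (0.10), both also lowest in control 3 and TO 3. Sbk1 was at 39.6, 40.5, 14.5 and 32.5 CPM in controls 1 to 4 and at 30.0, 23.1 and 39.2 CPM in TO 2, 3 and 4. For Bmp2 they were Stat3 (0.09), a transcription factor activated by cytokine receptors, and Fam161a (0.11). Stat3 was at 143, 122, 244 and 147 CPM in the controls and at 185, 224 and 156 CPM in TO 2, 3 and 4. Bmp7 was followed less closely by Col6a6 (0.20) and Acacb (0.23), and Nog by Ndufa11 (0.19) and Psmg2 (0.21). For Grem1 the nearest were more distant, Thbs4 (0.57) and Fgf13 (0.58), both highest in TO 4, at 23.7 and 14.1 CPM.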

How the data were processed

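Total RNA of whole E18.5 lungs from 4 control and 4 TO fetuses was made by the authors into NexteraXT libraries, sequenced as 150-bp pairs and aligned to GRCm38 (mm10) with STAR, and they deposited, for each gene, the raw counts of its read pairs. The versions of STAR and of the annotation are not given in the sources used here. Of 55385 gene IDs, 55144 matched GENCODE M21 without the version, which gave symbols, exon lengths and coordinates. The protocol does not mark strand (49.9% to 50.1% of pairs on each), so the column that ignores strand was taken, where overlapping genes lose the pairs they share.

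Controls 1, 2 and 4 and TO 2, 3 and 4 were compared with edgeR 4.0.16 (TMM, quasi-likelihood test, genes with at least 5 reads in 3 libraries, Benjamini-Hochberg adjusted p under 0.1 over all genes) in R 4.3.3. SEs are those of the fit. CPM use TMM factors of all 8 libraries, and log2 CPM a prior count of 2. DESeq2 1.42.0 and limma 3.58.1 were alternatives, with other scalings, filters, library sets and blocks. The fits were tested on simulated data with large fold changes, 1 fixed dispersion and no effect of specimen code. That test does not show what the fits find at differences as small as most of those seen here. No source says whether the lungs came from separate litters, so p-values measure the spread between these samples. The reads carry no molecular identifiers.

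Named were all 10 members, of each class of the pathway list the 3 genes with the highest level per kilobase, any list gene with an unadjusted p under 0.05, and the 2 genes most like each member that varied at least 2-fold. Marker lists covered lung epithelium, endothelium, lung mesenchyme, smooth muscle, cardiomyocyte, cartilage, esophagus, thymocyte, erythroid, cell cycle and interferon genes. The endothelium list summed to 1480 to 2611 CPM over the 8 libraries, the mesenchyme list to 4495 to 7640, the cartilage list to 97.3 to 230 and the erythroid list to 2201 to 5081. Lung epithelium genes summed to 6538 to 18311 CPM. The members, the lists and the libraries of the comparison were chosen with earlier results of these data known.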

Additional observations from a re-analysis of the deposited data

Results flagged for a closer look

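The 4 libraries of each group were examined for a lone high or low value in 24 named BMP genes, 48 groups in all, by the share of the range that lies between the end value and its neighbour (Dixon's criterion at 95%), which chance passes in about 1 of 20 groups. It was passed 3 times, and never by 1 of the 10 members. Bmper in control 3 stood at 75.7 CPM, above the 38.6 to 44.2 CPM of the other controls. Smurf2 in control 3 stood at 226.8 CPM, above their 162 to 172 CPM. Smad4 in TO 1 stood at 72.1 CPM on 21 reads, below the 114 to 123 CPM of TO 2 to 4. Control 3 was not part of the main comparison, and with it the log2 fold change of Bmper moved from 0.44 to 0.17.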

How the results depend on the processing

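The count of members called stayed at 0 under every alternative run, that is DESeq2, limma-voom, 2 other scalings, 2 other filters, strand columns summed, 7 or 8 libraries, each library left out in turn, and the blocks. Over all genes, edgeR called 0, DESeq2 44, and edgeR on every gene with a read 40. Leaving out 1 library gave 0 to 144 genes, most without TO 4, with 52 without control 4. For the pathway list it gave 0 to 1, namely Bmp10 without control 4 and Bmp3 without TO 4. Where a library was left out, an arm of 2 remained. Of 451 log2 fold changes of 24 named genes under the alternatives, 408 kept their sign and their side of the threshold, 42 changed sign and 1, Bmp10 without control 4, passed it. With 1 library left out, the value ranged from -0.38 to 0.021 for Bmp4, -0.21 to 0.13 for Bmp5, -0.22 to 0.97 for Bmp7, -0.36 to 0.041 for Acvrl1 and -0.0064 to 0.11 for Smad4. With control 3 added, Bmp5 moved to 0.021, Bmpr2 to -0.078, Twsg1 to -0.052 and Smad4 to -0.11. With all 8 libraries, Bmpr2 moved to -0.17, Twsg1 to -0.13, Smad4 to -0.21 and Smurf2 to -0.044. The cause of these changes was not tested.

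Whether replicate numbers pair the lungs depended on the genes taken. Over 21859 genes the deviations of same-numbered libraries correlated at 0.058, 0.13, 0.16 and 0.073 for numbers 1 to 4, and TO 4 correlated best with control 1, at 0.093. Over the 4018 genes of at least 6 log2 CPM they correlated at 0.10, 0.41, 0.42 and 0.57, with TO 4 closest to control 4 but TO 1 also closest to control 4, at 0.19, and without number 1 the values over all genes were 0.12, 0.18 and 0.19. Over the 4018 genes, without number 1, the same-numbered libraries correlated at 0.44, 0.46 and 0.69 for numbers 2 to 4. As the first check did not exceed 0.1 for every number, the numbers were not taken as pairs. The p-values of the main comparison therefore treat the libraries as independent, although same-numbered ones deviated together in the more abundant genes. With a replicate block, edgeR called 219 genes in the 6 libraries, where only numbers 2 and 4 have both groups, and 3 in all 8. Among pathway genes it called 3 in the 6 libraries, Hfe2, Sost and Chrdl1. The 6-library block moved Bmp5 to 0.15 and Id1 to 0.012. The 8-library block moved Id1 to 0.066, Id3 to 0.08, Bmpr2 to -0.16, Twsg1 to -0.13, Smad4 to -0.21, Smurf2 to -0.064 and Id2 to 0.0077. A block by specimen code on 7 libraries called 1 gene and moved Id1 to 0.064, Id3 to 0.13, Bmpr2 to -0.071, Twsg1 to -0.067, Smad4 to -0.11, Smurf2 to -0.001 and Id2 to 0.14. A block of pairs 2, 3 and 4, chosen after seeing the data, called 3 genes and moved Bmp4 to 0.00067, Bmp5 to 0.11, Id1 to 0.14, Id3 to 0.14, Bmpr2 to -0.05, Twsg1 to -0.036, Smad4 to -0.13, Smurf2 to -0.0066 and Id2 to 0.22. Grem1 remained higher in TO under the 4 blocks, at 1.76 to 2.28, with adjusted p of 0.40 to 0.99995. Depth limits Nog and Grem1, at 10 to 166 reads in the deep libraries, and every gene in TO 1.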
